A study of Medicago truncatula with 9 samples.

Results

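The miR159 family was represented in the count table by 2 of 905 miRNA entries, mtr-miR159a and mtr-miR159b, which were taken by their names. Both are 21 nt long, and both had enough counts for a test. Small RNA was sequenced from entire *Medicago truncatula* R108 seedlings, a genotype used as a legume model. Seeds were set to germinate in 1 of 3 solutions, and the seedlings were harvested after 72 h. The alkali solution held carbonate and bicarbonate of sodium (Na2CO3 with NaHCO3, 5 mM), and the salt solution held sodium chloride and sulfate (NaCl with Na2SO4, 20 mM). Control seeds germinated in distilled water. The paper reports that treated seedlings were shorter, those in salt the shortest and with closed cotyledons. Treatment and stage of growth can therefore not be told apart in these libraries. Each condition had 3 libraries (AS1 to AS3 for alkali, SS1 to SS3 for salt and DW1 to DW3 for distilled water). One dish was described for each condition, and it is not stated whether the replicates came from separate dishes, so p-values measure the spread between these libraries only. No accepted miRNA marker of a single seedling tissue was available to check the tissue label.

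miR159 is one of the most conserved plant miRNAs. It pairs with the transcripts of GAMYB-like MYB transcription factors and leads to their cleavage, and in *Arabidopsis* it keeps these MYB factors low in vegetative tissue. GAMYB-like factors act in gibberellin signalling in the cereal aleurone and in anther development, and in *Arabidopsis* the miR159-MYB pair has also been tied to abscisic acid responses of germinating seeds. miR319 is an evolutionary relative with a similar sequence, best known for its TCP transcription factor targets.

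The mature sequence of mtr-miR159a is shown with its relatives because the likeness of the families is visible in it. Among 110 distinct sequences that the study lists, 3 others met the likeness rule (the same bases 2 to 8, or at least 17 aligned bases with at most 5 mismatches). Sequences run 5′ to 3′, and capitals mark the seed, bases 2 to 8.
mtr-miR159a: uUUGGAUUgaagggagcucua
mtr-miR319c-3p: uUGGACUGaagggagcuccca
predicted miRNA 205: aUUGGAUUgaagggagcucc
predicted miRNA 84: uUUGGAUUgaagggagau
mtr-miR319c-3p begins at the second base of mtr-miR159a, so that its seed differs, and over 20 aligned bases the changes are U7C, U20C and A21C, with positions counted from 1 at the 5′ end of mtr-miR159a. The predicted miRNAs that the study numbers 205 and 84 have the seed of mtr-miR159a. They differ from it by U1A and U20C over 20 aligned bases and by C17A over 18 aligned bases. Their numbers do not pair with names in the count table, so no counts are given for them. The listed sequences cover a selection of the entries, so relatives outside it were not searched. The sequence of mtr-miR159b and the genomic positions of the hairpins were not used here.

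Nearly all reads of the family came from mtr-miR159a, with 96395 counts for each count of mtr-miR159b. mtr-miR159a had 9639536 counts over the 9 libraries and ranked 2 of 876 detected miRNAs, while mtr-miR159b had 100 counts and ranked 632. In every library mtr-miR159a was second to mtr-miR5213-5p, a 22-nt legume miRNA, and its summed count was 7.53 times that of mtr-miR166a, which came next. It took 12.8% to 28.4% of all miRNA counts of a library and 34.7% to 49.8% of the counts of known 21-nt miRNAs. The totals behind these shares were 3746957 to 7191272 miRNA counts per library. At this depth the counting error of mtr-miR159a was small, and the 95% Wilson interval of its share was 23.4% to 23.5% in AS1 and 12.7% to 12.8% in DW2. Such intervals cover counting error only and leave out the spread between libraries. They also take reads as independent, which reads amplified by PCR are not.

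mtr-miR159a was highest in AS1 and SS1 and lowest in DW1 and DW2. Levels are given in CPM, counts per 1000000 after edgeR's TMM scaling, which sets libraries to a common level by trimming the most divergent miRNAs. mtr-miR159a was at 304827, 231874 and 217865 CPM in alkali libraries AS1, AS2 and AS3, at 264739.9, 225690.0 and 225013 CPM in salt libraries SS1, SS2 and SS3, and at 141663, 115543 and 226273 CPM in distilled water libraries DW1, DW2 and DW3. DW3 lay within the range of the alkali libraries and just above 2 of the 3 salt libraries, so both treatments overlapped distilled water through this 1 library. The mean was 251522 ± 46692 CPM in alkali, 238481 ± 22743 CPM in salt and 161160 ± 57883 CPM in distilled water (SD, n = 3 each). The spread was widest in distilled water, where the SD was 35.9% of the mean, against 18.6% in alkali and 9.54% in salt. In whole seedlings, more cells that make a miRNA and more of it per cell cannot be told apart.

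**Figure D1:**
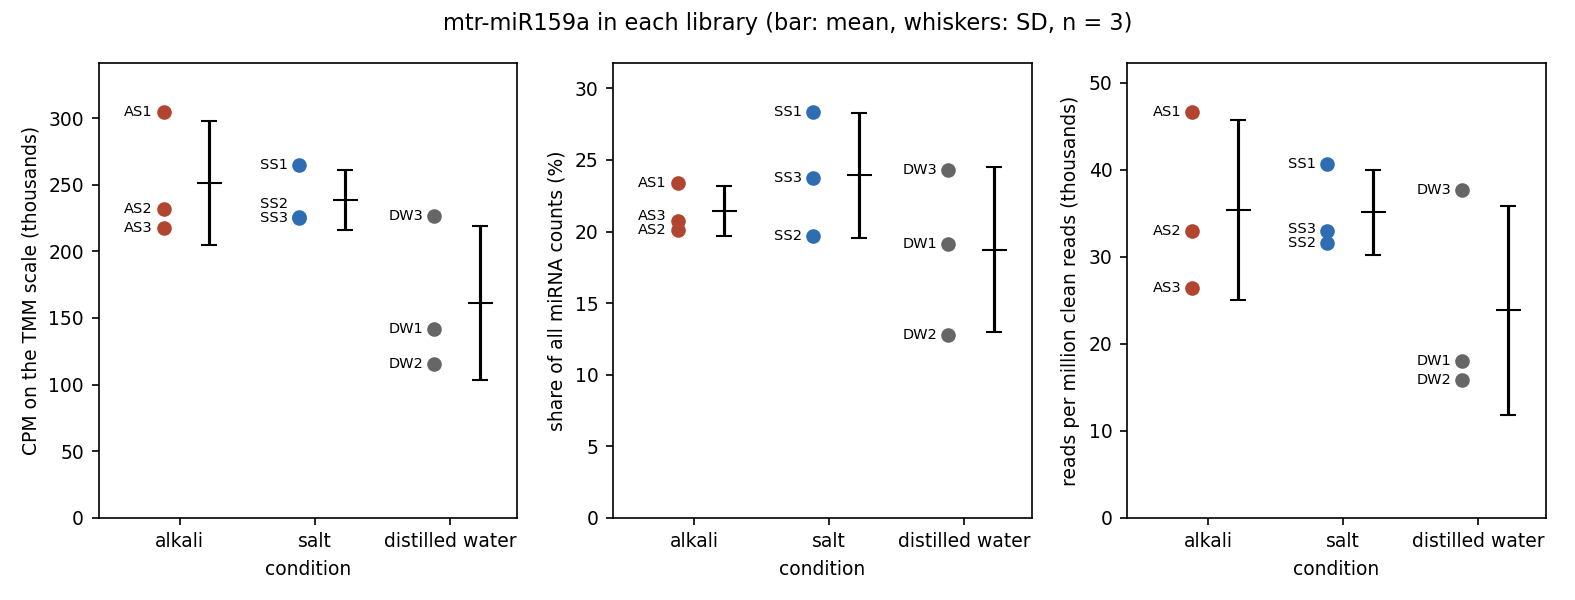
Level of mtr-miR159a in each of the 9 libraries by condition (x axis) as CPM on the TMM scale, as a percent of all miRNA counts and as reads per 1000000 clean reads (y axes), with points for libraries and bars and whiskers for the mean and SD of 3 libraries. DW1 and DW2 were the lowest libraries on all 3 scales, with 141663 and 115543 CPM, and DW3, at 226273 CPM, lay among the treated libraries.

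The order of the libraries depended partly on the scale. The share of mtr-miR159a in all miRNA counts was 23.4%, 20.1% and 20.8% in AS1 to AS3, 28.4%, 19.7% and 23.7% in SS1 to SS3, and 19.1%, 12.8% and 24.3% in DW1 to DW3. Per 1000000 clean reads, as totalled by the study, mtr-miR159a had 46682, 32964 and 26386 reads in AS1 to AS3, 40707, 31619 and 32987 in SS1 to SS3, and 18071, 15851 and 37637 in DW1 to DW3. DW1 and DW2 were the lowest libraries on each of the 3 scales, and DW3 was the second highest by share and the third highest by clean reads. The TMM factors moved with the condition, at 0.768 to 0.953 in alkali, 0.871 to 1.07 in salt and 1.07 to 1.35 in distilled water, so that CPM sets the treatments further above distilled water than the shares do. The shares averaged 21.4% ± 1.76 in alkali, 23.9% ± 4.36 in salt and 18.7% ± 5.77 in distilled water (SD, n = 3 each). An exact permutation test over the 3 conditions gave p = 0.396 (two-sided, 0.739 adjusted over the 3 quantities tested in this way, smallest possible p = 0.00357). The difference in share between alkali and distilled water was 2.70 points, and it turned to -0.28 points without DW2. In salt it stayed positive when 1 library was left out, at 2.22 to 7.98 points.

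mtr-miR159a did not pass the edgeR test in any comparison with all 9 libraries, while DESeq2 and limma-voom called it in alkali, as given below. All 9 libraries were fitted together with edgeR's quasi-likelihood test, and a call needed an adjusted p under 0.05 over all 647 miRNAs tested and a fold change over 1.5. In alkali against distilled water mtr-miR159a was at 1.56-fold, a log2 fold change of 0.64 (standard error 0.259, 95% interval 0.11 to 1.18, unadjusted p = 0.0209, adjusted p = 0.0704 from edgeR). In salt against distilled water it was at 1.48-fold, a log2 fold change of 0.57 (standard error 0.258, 95% interval 0.03 to 1.10, unadjusted p = 0.0393, adjusted p = 0.194 from edgeR). Both differences were positive under each of 23 alternatives. Among these, dropping the fold threshold cannot change the value, and leaving out a library of the condition not compared changed it little. The intervals leave room for changes from close to 0 to over 2-fold. In alkali against salt the log2 fold change was 0.077 (95% interval -0.46 to 0.61, adjusted p = 0.880 from edgeR), and its sign turned with library totals in place of TMM, without AS1, and without DW1 and AS1 together. The 2 comparisons with distilled water share its libraries, so they are not separate evidence. Over all miRNAs tested, 17.2% were called in alkali (8.66% higher and 8.5% lower), 8.19% in salt (4.02% higher and 4.17% lower) and 4.02% in alkali against salt (3.4% higher and 0.618% lower). The libraries of the conditions did not overlap for 34.6%, 24.1% and 25% of all miRNAs in these comparisons, and they overlapped for both members in each.

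Whether edgeR called mtr-miR159a turned on DW3. Without this library its log2 fold change was 1.03 in alkali (adjusted p = 0.000228 from edgeR) and 0.96 in salt (adjusted p = 0.000935 from edgeR). mtr-miR159a was then called higher in both. DW3 was the highest of the distilled water libraries, so leaving it out raised both differences, and these values are a description only. Leaving out any other library gave 0.48 to 0.76 in alkali and 0.43 to 0.61 in salt, with no call. Over all 659 miRNAs tested without DW3, 16.1% rose and 14.6% fell in alkali and 10.6% rose and 4.7% fell in salt. DW3 was not the only library that moved these counts. In alkali 31 miRNAs rose without AS1, against 56 with all libraries. In salt 4 rose without SS2, 7 without DW2, 8 without SS1, 13 without DW1 and 43 without AS3, against 26 with all libraries. DESeq2 and limma-voom called mtr-miR159a in alkali with all libraries (log2 fold change 0.75, adjusted p = 0.0134, and 0.69, adjusted p = 0.0489), and neither did so in salt. In alkali these tools called 20% and 19.6% of all miRNAs, with 13.8% and 9.43% higher.

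**Figure D2:**
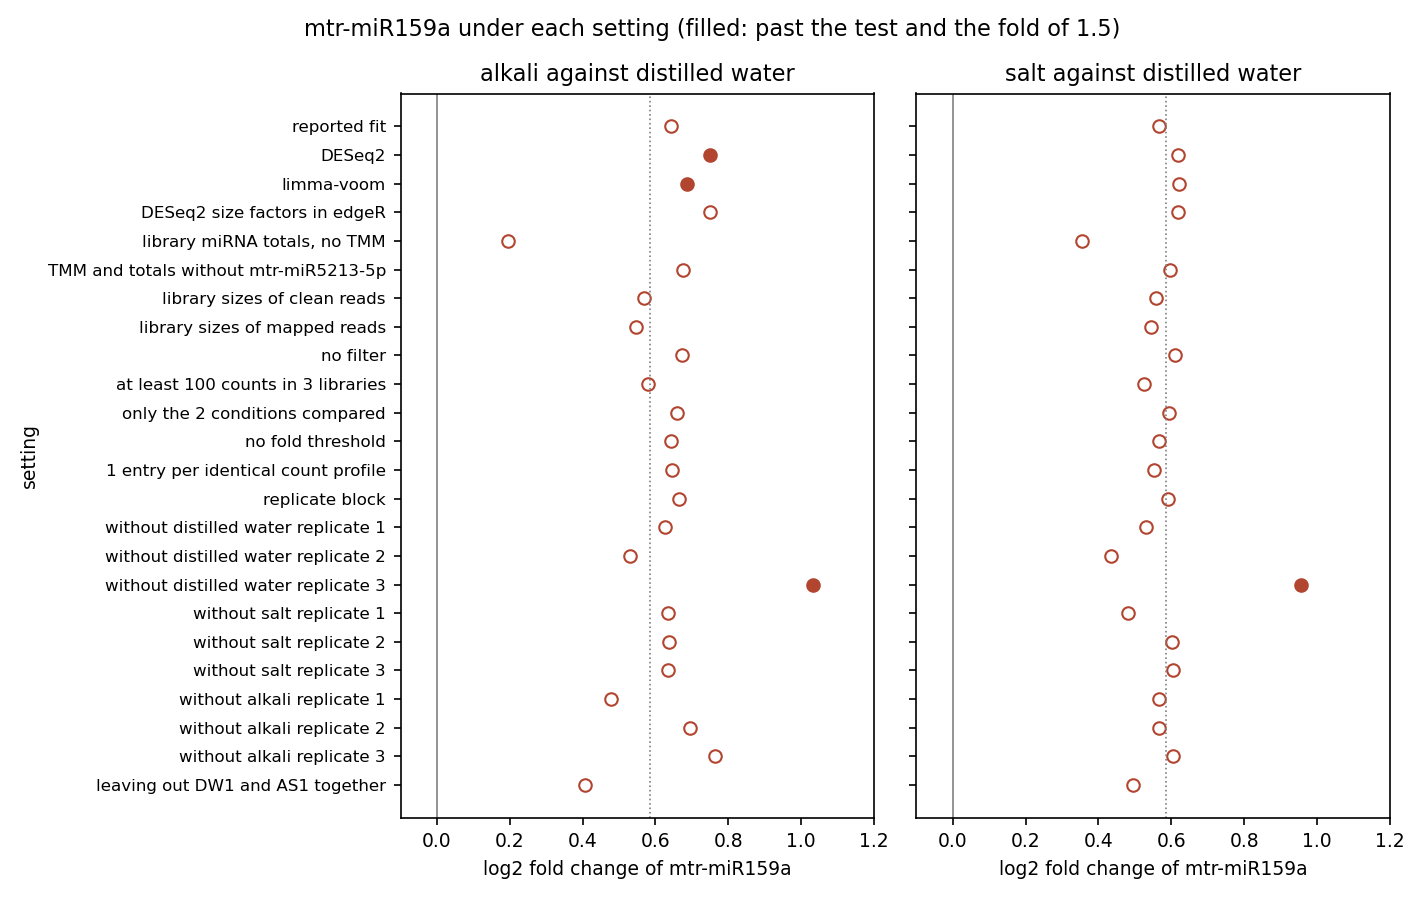
Log2 fold change of mtr-miR159a (x axis) against distilled water, in alkali on the left and in salt on the right, in the reported fit and under each alternative (y axis); filled points passed an adjusted p of 0.05 and a fold of 1.5, and the dotted line marks that fold. All points lie above 0, from 0.19 with library totals to 1.03 without distilled water replicate 3 (DW3) in alkali.

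The level of the log2 fold changes depends on the scaling, which shifts all miRNAs by nearly the same amount. The median log2 fold change of all miRNAs tested was -0.17 in alkali and -0.06 in salt on the TMM scale, and -0.61 and -0.28 with library totals, a shift of -0.44 in alkali and -0.22 in salt. mtr-miR159a itself was at 0.19 in alkali and 0.35 in salt with library totals. On the TMM scale it lay 0.81 above the median in alkali and 0.62 above it in salt, and a common shift of all miRNAs leaves such a distance as it is. In alkali 9.27% of all miRNAs tested, and in salt 8.04%, had a higher log2 fold change than mtr-miR159a. These values describe its place and carry no test of their own.

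mtr-miR159b was close to the limit of detection. It had 14, 27 and 6 counts in AS1 to AS3, 10, 5 and 8 counts in SS1 to SS3, and 2, 6 and 22 counts in DW1 to DW3. The libraries with the most reads were AS2 and DW3, which belong to different conditions, and the conditions overlapped in every pair. On the TMM scale mtr-miR159b averaged 3.07 ± 1.64 CPM in alkali, 1.58 ± 0.591 CPM in salt and 2.09 ± 2.14 CPM in distilled water (SD, n = 3 each). In distilled water the SD was as large as the mean. The exact 95% Poisson interval, which covers counting error only, was 0.0479 to 1.43 CPM in DW1 and 2.82 to 6.82 CPM in DW3.

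**Figure D3:**
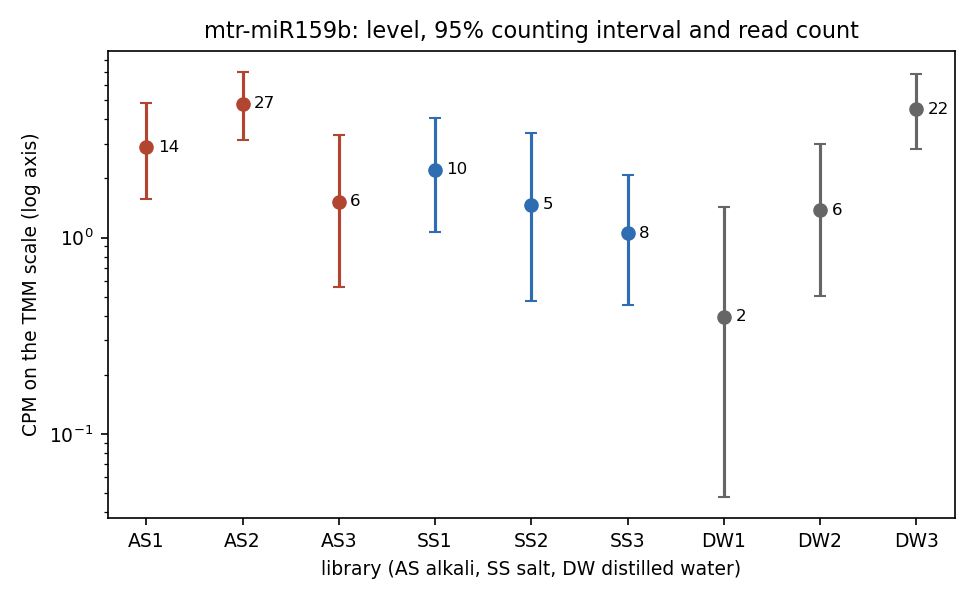
Level of mtr-miR159b in CPM on the TMM scale (y axis, log) in each library (x axis), with exact 95% Poisson intervals as error bars and the read count printed beside each point. The counts ran from 2 in DW1 to 27 in AS2, and the interval is widest on the log axis in DW1.

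No difference in mtr-miR159b was detectable with these low counts and this spread between libraries. Its log2 fold change was 0.59 in alkali against distilled water (standard error 0.567, 95% interval -0.58 to 1.77, adjusted p = 0.437 from edgeR) and 1.05 in alkali against salt (standard error 0.596, 95% interval -0.18 to 2.29, adjusted p = 0.351 from edgeR). In salt against distilled water it was -0.46 (standard error 0.636, 95% interval -1.78 to 0.86, adjusted p = 0.701 from edgeR), and limma-voom gave the opposite sign at 0.027. Against distilled water both intervals include 0 and reach past a 1.5-fold rise. Leaving out 1 library moved the log2 fold change in alkali to between 0.16 (without DW1) and 0.92 (without AS3), and in salt to between -0.92 (without DW1) and -0.15 (without SS3), with no call; without DW3 or AS2 it had too few counts to be tested. In all, edgeR called 0 of the 2 members in each comparison, where it called 17.2% of all miRNAs in alkali, 8.19% in salt and 4.02% in alkali against salt. DESeq2 and limma-voom each called 1 in alkali, mtr-miR159a, and 0 in the other comparisons, where they called 7.21% and 8.04% of all miRNAs in salt and 3.86% and 4.02% in alkali against salt. DESeq2 gave mtr-miR159b no adjusted p against distilled water.

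The ratio of the members within a library needs no scaling and asks directly whether they moved apart. mtr-miR159a had 105550.5, 48408 and 143092 counts for each mtr-miR159b count in AS1 to AS3, 119247, 154026 and 213485 in SS1 to SS3, and 358344, 83898 and 50259 in DW1 to DW3. The distilled water ratios lay on both sides of the range of the salt libraries, DW1 above it and DW2 and DW3 below it. The value in DW1 rests on 2 reads of mtr-miR159b, with a counting interval of 99199.7 to 2958958. On the log2 scale the ratio averaged 16.46 ± 0.81 in alkali, 17.27 ± 0.42 in salt and 16.81 ± 1.47 in distilled water (SD, n = 3 each). An exact permutation test over the 3 conditions gave p = 0.625 (two-sided, 0.739 adjusted over 3 tests). The difference of the log2 ratio was -0.35 in alkali against distilled water (p = 0.8), 0.46 in salt against distilled water (p = 0.6) and -0.81 in alkali against salt (p = 0.2, exact permutation tests, two-sided), where 3 libraries against 3 cannot go below p = 0.1. Both directions against distilled water turned. In alkali the difference was 0.47 without DW1, 0.099 without AS2, 0.36 without DW1 and AS1 together and 0.28 with a pseudocount of 10, and in salt it was -0.14 without DW3. The share of mtr-miR159b in all miRNA counts likewise gave p = 0.739 over the 3 conditions by the same exact permutation test.

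The relatives set beside the family were the 7 miR319 entries and mtr-miR4414b, and all 8 were tested. The study's own MIR159 family is wider than the members taken here by name. It also holds mtr-miR4414b, the miR319 entries except mtr-miR319b-3p, and the predicted miRNAs 205 and 66. The 3p entries of miR319 were abundant, and mtr-miR319c-3p, whose sequence is shown above, was at 13226, 8215 and 8816 CPM in AS1 to AS3, at 9115, 11626 and 7963 CPM in SS1 to SS3, and at 5005, 6188 and 8407 CPM in DW1 to DW3. DW1 and DW2 were again the lowest libraries, and DW3 again lay within the range of both treatments. Its log2 fold change was 0.63 in alkali (95% interval 0.15 to 1.11, adjusted p = 0.0576 from edgeR) and 0.55 in salt (95% interval 0.07 to 1.03, adjusted p = 0.145 from edgeR), beside 0.64 and 0.57 for mtr-miR159a. mtr-miR319a-3p had log2 fold changes of 0.50 in both, and the counts of mtr-miR319a-3p, mtr-miR319b-3p and mtr-miR319d-3p differed by at most 0.205% within a library, so these entries are not independent. edgeR called 0 of the 8 in any comparison, where it called 17.2% of all miRNAs in alkali, 8.19% in salt and 4.02% in alkali against salt. DESeq2 called 4 of the 8 in alkali, all higher, and 0 in the other comparisons, and limma-voom called 0. These counts stand beside the 13.8% of all miRNAs that DESeq2 called higher in alkali. Without DW3 edgeR called 4 higher in alkali and 5 in salt, where it called 16.1% and 10.6% of all miRNAs higher. DW3 was left out here after seeing the data, so these counts are a description only. The median log2 fold change of the 8 was 0.47 in alkali and 0.48 in salt, beside -0.17 and -0.06 over all miRNAs tested. The near-identical 3p entries weigh on this median. In alkali 6 of the 8 were above 0, with mtr-miR4414b at 0.15, while mtr-miR319a-5p was at -0.17 and mtr-miR319b-5p at -0.26. In salt all 8 were above 0, the lowest being mtr-miR4414b at 0.03.

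The ratio of mtr-miR159a to mtr-miR319c-3p was steadier than its ratio to mtr-miR5213-5p. mtr-miR159a had 23.05, 28.2 and 24.7 counts for each count of mtr-miR319c-3p in AS1 to AS3, 29.0, 19.4 and 28.3 in SS1 to SS3, and 28.3, 18.7 and 26.9 in DW1 to DW3. The lowest values, in SS2 and DW2, came from different conditions. Against mtr-miR5213-5p the ratio ran from 0.246 in DW2 to 0.977 in SS1, where both miRNAs had nearly the same number of reads. The log2 ratio to mtr-miR5213-5p averaged -0.95 ± 0.18 in alkali, -0.60 ± 0.54 in salt and -1.23 ± 0.78 in distilled water (SD, n = 3 each). mtr-miR5213-5p itself averaged 41.3% ± 2.00 of the miRNA counts in alkali, 36.2% ± 6.76 in salt and 43.2% ± 9.15 in distilled water (SD, n = 3 each), and these counts are part of the total of which the share of mtr-miR159a is taken.

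**Figure D4:**
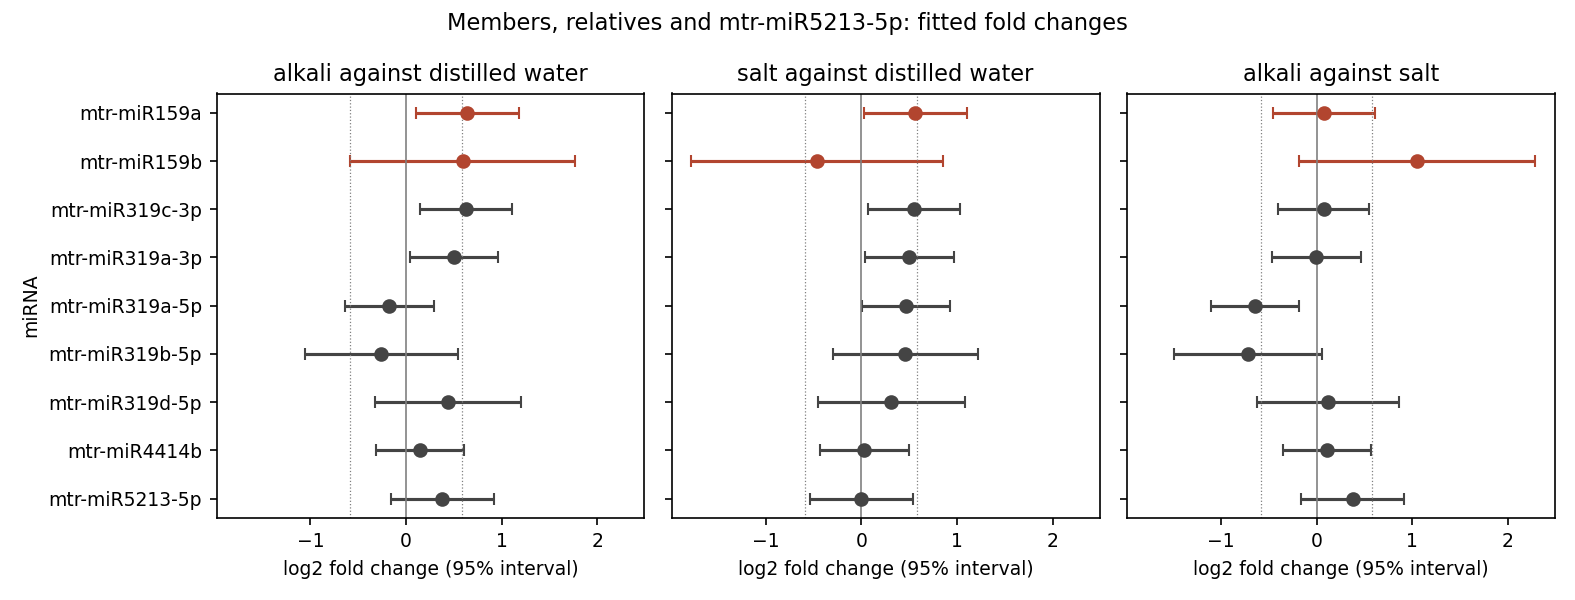
Log2 fold changes with 95% intervals from edgeR (x axes) for the members in red and, in grey, for 6 relatives and mtr-miR5213-5p (y axis), in the 3 comparisons; dotted lines mark a 1.5-fold change. mtr-miR159a and mtr-miR319c-3p lie at 0.64 and 0.63 in alkali and at 0.57 and 0.55 in salt, and the intervals of mtr-miR159b are the widest, from -0.58 to 1.77 in alkali.

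Conserved plant miRNA families other than miR159, the miR319 entries included, gave a wider setting. Of 131 such entries, 85 were tested, with 71 distinct count profiles. Nearly equal profiles count as distinct, such as mtr-miR166a and mtr-miR166g-3p with 1280227 and 1279997 counts, so the entries are not independent. In alkali 35 rose and 5 fell, with a median log2 fold change of 0.53, where all 647 miRNAs had 56 and 55 with a median of -0.17. In salt 13 rose and 9 fell, with a median of 0.36, against 26 and 27 with a median of -0.06 for all miRNAs. Without DW3, 87 were tested. In alkali 56 of these rose and 3 fell, beside 106 and 96 of all 659 miRNAs. In salt 35 rose and 6 fell, beside 70 and 31. Leaving out DW3 for this list was decided after seeing the data, so these counts are a description only. mtr-miR159a, which is not in that list, was above both medians, and 38.8% of the conserved entries in alkali and 21.2% in salt had a higher log2 fold change.

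The miRNAs whose pattern over the 9 libraries was closest to that of mtr-miR159a were conserved ones. Likeness was the root mean square of the difference in log2 CPM, each miRNA being centred on its own mean. The scaling of a library cancels in the difference between miRNAs, apart from the effect of the prior count. The closest, at 0.149, was mtr-miR171f, whose family acts on GRAS transcription factor genes, followed by mtr-miR171d at 0.182, mtr-miR166a and mtr-miR166g-3p at 0.189 each and mtr-miR156c-3p at 0.192. The counts of mtr-miR166a and mtr-miR166g-3p are nearly equal, so these entries are not independent. The miR166 family targets HD-ZIP III transcription factors, and mtr-miR156c-3p is the 3p arm of a hairpin of the SPL-targeting miR156 family. The median over 488 count profiles was 0.546, mtr-miR319c-3p was at 0.230 in place 24 and mtr-miR5213-5p at 0.523 in place 223. mtr-miR171f was at 77.6, 69.5 and 66.5 CPM in AS1 to AS3, 66.8, 78.0 and 68.1 CPM in SS1 to SS3, and 42.7, 36.5 and 58.3 CPM in DW1 to DW3. It was chosen for its likeness over these libraries, so its values are a description. Its DW3 level stayed below all treated libraries, and edgeR called it higher in alkali (log2 fold change 0.63, standard error 0.190, adjusted p = 0.0242 from edgeR) and in salt (0.63, standard error 0.190, adjusted p = 0.0416 from edgeR).

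The pattern closest to mtr-miR159b was that of mtr-miR2586a, another sparse miRNA at 0.988 to 3.73 CPM, at a distance of 0.475. The next were mtr-miR4414a-5p, mtr-miR156g-3p, mtr-miR2678 and mtr-miR2643b-5p at 0.549 to 0.568. The distance between the members was 0.670, beside a median to the other profiles of 0.909 from mtr-miR159b and 0.546 from mtr-miR159a. The members were thus closer than the median for mtr-miR159b and farther apart than the median for mtr-miR159a. To a flat line the distance was 0.411 from mtr-miR159a and 0.810 from mtr-miR159b, distances that depend on the TMM scale. These distances rest on 2 to 27 counts of mtr-miR159b in a library, and the part of counting error in them was not tested. With another scale and no prior count 2 of its 5 closest miRNAs remained.

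**Figure D5:**
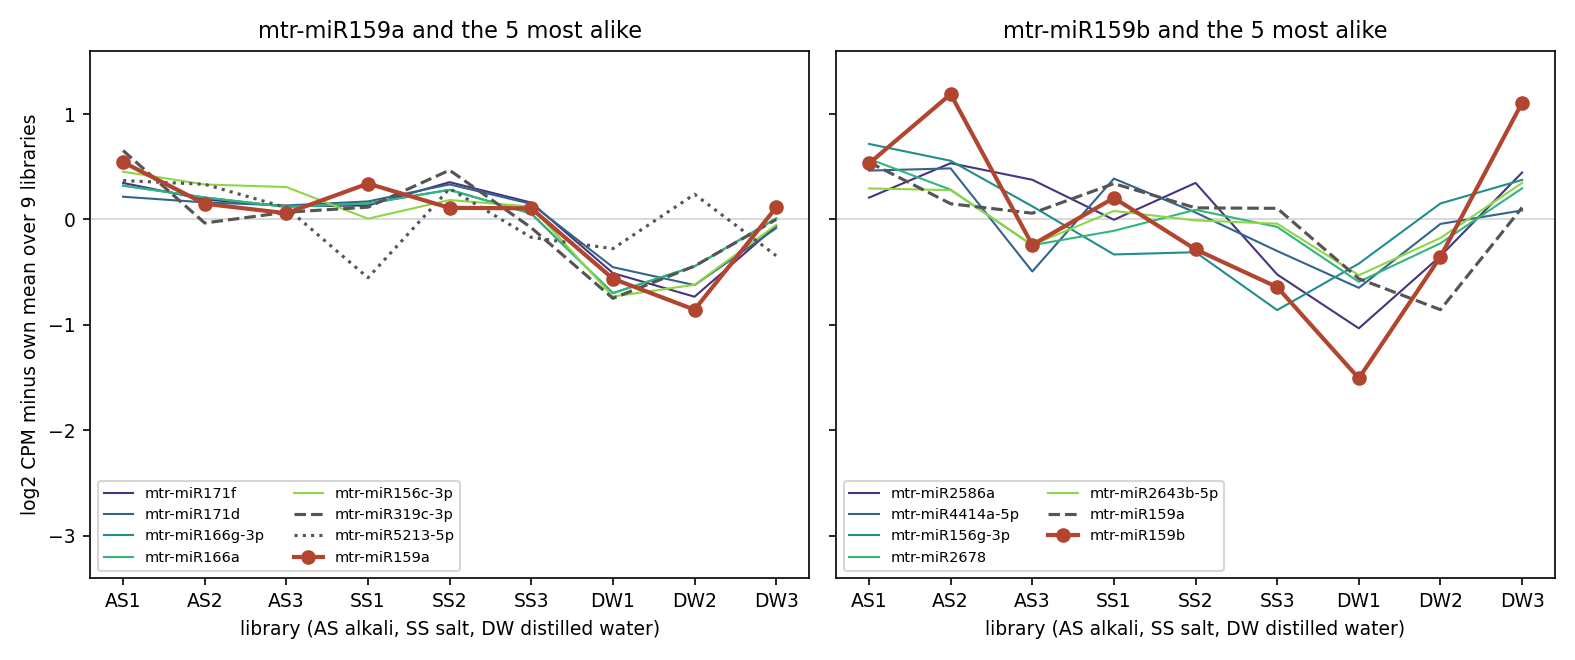
Log2 CPM minus the miRNA's own mean (y axes) in the 9 libraries (x axes) for mtr-miR159a on the left and mtr-miR159b on the right, each with the 5 miRNAs most like it and with other miRNAs for comparison. mtr-miR159a is lowest in DW1 and DW2, as are its 5 neighbours, which were chosen for likeness over these libraries, while mtr-miR159b peaks in AS2 and DW3, at 27 and 22 counts.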

How the data were processed

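Small RNA libraries of 9 whole-seedling samples were analysed. Before deposit the authors cleaned and size-selected the reads, used Bowtie to filter structural RNAs, mapped what was left to the Mt4.0 genome with miRDeep-P, and tallied known and predicted miRNAs. They deposited raw counts and TPM values. The deposited TPM values equal the counts per 1000000 of a library's miRNA total within 0.001, so the counts were used. The authors also deposited the length of each mature sequence. How reads of similar sequences were assigned was not analysed here. The paper names different sequencing instruments in its results and its methods, and no batch is given. All table columns matched a library (0 unmatched).

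The count model was edgeR 4.0.16 in R 4.3.3 (filterByExpr with a minimum count of 10, TMM, robust quasi-likelihood fit, Benjamini-Hochberg adjustment), with DESeq2 1.42.0 and limma 3.58.1 as alternatives, and the procedure was tested on simulated data. Log2 CPM used a prior count of 2. The members, lists and tests were chosen with earlier results of these data known. miRNAs named were the members, the most abundant miRNAs, the listed relatives and, for each member, the 5 with the closest pattern; the conserved families were summarised. Other alternatives were scalings, filters, denominators, a fit of 2 conditions, a replicate block and leaving out libraries; the lists without DW3 were added after seeing the data. The study's columns of its own comparisons, target assays and RT-qPCR were not used here. Target genes were not analysed here.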

Additional observations from a re-analysis of the deposited data

How the results depend on the processing

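Same-numbered libraries did not deviate together in a consistent direction (correlations of -0.585 to 0.403), so the numbers were not taken as pairs. With a replicate block mtr-miR159a was at 0.67 in alkali (adjusted p = 0.106 from edgeR) and 0.59 in salt (adjusted p = 0.252 from edgeR). No call of the members changed. Over all miRNAs the block gave 44 higher and 40 lower calls in alkali and 11 and 20 in salt. Against distilled water, mtr-miR159a was called in alkali with DESeq2 (0.75) and limma-voom (0.69), and without DW3 in both treatments. When 1 library was left out, its log2 fold change was 0.48 to 1.03 in alkali, 0.43 to 0.96 in salt and -0.087 to 0.16 in alkali against salt. Alkali against salt turned negative with library totals (-0.16), without AS1 (-0.087) and without DW1 and AS1 together (-0.086). The log2 fold change of mtr-miR159b in salt turned positive with limma-voom (0.027). The difference in the share of mtr-miR159a between alkali and distilled water turned negative without DW2 (-0.28 points). With 1 library left out, the log2 ratio of the members differed by -0.94 to 0.47 in alkali and -0.14 to 1.28 in salt against distilled water. The cause was not tested. As a percent of clean reads, the difference of mtr-miR159a in alkali was 1.15 points. mtr-miR159b had too few counts for the filter of 100 counts, without DW3 or AS2, and in fits of distilled water with 1 treatment. Over the alternatives 23 to 106 miRNAs rose and 14 to 255 fell in alkali, 4 to 70 and 3 to 46 in salt, and 8 to 27 and 0 to 36 in alkali against salt.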
